A study of Homo sapiens with 6 samples.

Results

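The metallothionein genes MT1E, MT1F, MT1G, MT1X and MT2A and their regulator MTF1 were followed in RNA libraries of HCT116, a human colon cancer cell line. The 6 genes were matched by name, a choice made with earlier results of these data known, from the 62710 genes of the deposited table, and 5 of them were among the 16753 genes with enough counts to test. The study set 3 libraries of cells with an shRNA against IGF2BP3, an RNA-binding protein that reads N6-methyladenosine and stabilises its target mRNAs, beside 3 libraries of cells with a scrambled control. Both kinds of cells were stable lines made with lentivirus and selected with puromycin, they carried no other labelled change, and they are called sh-IGF2BP3, or the knockdown, and sh-NC, or the controls. A single shRNA sequence was used and nothing in the labels says that the 3 libraries of a group came from separate cultures, so the p-values measure the spread between these libraries, which may be technical. The libraries held 16146718 to 23576469 counts on genes, and no 2 libraries of a group agreed within counting noise. IGF2BP3 itself ran from 70.3 to 90.3 CPM (counts scaled to a common library total) in sh-NC and from 52.3 to 60.2 CPM in the knockdown libraries, and the groups did not overlap, as for 11% of all genes in this lower direction. It was not called (log2 fold change −0.54, adjusted p = 0.126 by edgeR's quasi-likelihood test, 0.0829 by DESeq2), and with each library's trend with GC content and length taken out its log2 fold change was −0.22. All 10 colon epithelial markers had counts, and 7 of them had enough to test. Their sum was 2220 to 3551 CPM in sh-NC and 3041 to 3957 CPM in sh-IGF2BP3 libraries. Of 9 leukocyte, endothelial and fibroblast markers 7 had counts, 3 had enough to test, and COL1A2 and LUM were at 0. The sum of the 9 was 28.8 to 56.2 CPM in sh-NC and 30.9 to 62.4 CPM in sh-IGF2BP3 libraries.

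Metallothioneins are small, cysteine-rich proteins that bind zinc, copper and cadmium through clusters of cysteine thiolates, buffer free metal ions and scavenge reactive oxygen species. MTF1 is the zinc finger transcription factor that senses free zinc, enters the nucleus when zinc rises and binds metal response elements in the promoters of these genes. MT2A and the MT1 genes are widely expressed and strongly induced by metals, glucocorticoids and stress, and MT1 genes are often silenced in colorectal cancer.

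The 5 metallothionein genes lie within 75613 bases of chromosome 16 on GRCh38, and all but MT1G are on the plus strand. In the files MT2A (ENSG00000125148) spans 56608584 to 56609497, MT1E (ENSG00000169715) 56625475 to 56627112 and MT1F (ENSG00000198417) 56657731 to 56660698. MT1G (ENSG00000125144) spans 56666730 to 56668065 on the minus strand and MT1X (ENSG00000187193) 56682470 to 56684196. MTF1 (ENSG00000188786) is on chromosome 1, 37809574 to 37859592, on the minus strand. MT1X overlaps a long noncoding RNA gene on its own strand that had 0 counts, and MTF1 overlaps a processed pseudogene on the opposite strand that had 6 counts over the 6 libraries.

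The coding sequences are shown because a read must differ between the genes to be given to one of them. They were read from the 3-exon transcripts MT2A-201, MT1E-201, MT1F-201, MT1G-202 and MT1X-201 of GENCODE 29 and are each 186 bases with the stop codon. Capitals mark the bases that differ from MT2A.
MT2A: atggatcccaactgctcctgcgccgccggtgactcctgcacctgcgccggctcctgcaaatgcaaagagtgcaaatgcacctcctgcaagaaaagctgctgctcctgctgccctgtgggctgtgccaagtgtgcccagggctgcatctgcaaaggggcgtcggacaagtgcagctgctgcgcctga
MT1E: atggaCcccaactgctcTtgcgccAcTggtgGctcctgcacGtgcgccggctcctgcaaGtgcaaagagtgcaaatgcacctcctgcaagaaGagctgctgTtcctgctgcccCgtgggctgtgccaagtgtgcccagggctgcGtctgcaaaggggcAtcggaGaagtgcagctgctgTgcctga
MT1F: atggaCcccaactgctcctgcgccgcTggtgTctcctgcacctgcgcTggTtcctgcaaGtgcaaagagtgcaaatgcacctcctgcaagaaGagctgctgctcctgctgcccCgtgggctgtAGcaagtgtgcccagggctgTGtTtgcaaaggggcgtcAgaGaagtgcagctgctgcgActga
MT1G: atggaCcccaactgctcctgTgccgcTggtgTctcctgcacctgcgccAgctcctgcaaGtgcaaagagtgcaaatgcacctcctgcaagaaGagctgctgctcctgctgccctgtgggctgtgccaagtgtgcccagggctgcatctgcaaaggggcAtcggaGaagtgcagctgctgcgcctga
MT1X: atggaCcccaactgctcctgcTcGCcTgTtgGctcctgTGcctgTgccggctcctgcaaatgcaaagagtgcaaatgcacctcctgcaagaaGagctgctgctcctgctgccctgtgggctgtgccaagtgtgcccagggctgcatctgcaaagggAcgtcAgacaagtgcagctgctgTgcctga
The closest to MT2A was MT1G, with 9 differences and 95.2% identity. MT1E and MT1X each had 14 differences from MT2A (92.5% identity) and MT1F had 16 (91.4%). Between members the longest identical run of the coding sequence was 32 bases for MT1E with MT2A and 96 bases for MT1G with MT1X. Of all 50-base windows in the annotated transcripts of a gene, those found also in a transcript of another gene made up 18.3% in MT1X, 16.5% in MT1G, 7.10% in MT1E, 3.02% in MT2A, 1.22% in MT1F and 0.640% in MTF1. At 100 bases only MT1X, of these 6 genes, had shared windows (11.3%), and the only other gene was AC026461.1, not a metallothionein by name. At 50 bases AC026461.1 also shared the most windows with MT1X, ahead of MT1G, MT1XP1 and MT2A. Neither the treatment of multiply mapped reads nor the use of strand is given in the sources used here, so a count of 1 metallothionein gene may include reads of another.

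The promoters are shown because metal response elements, which MTF1 binds, lie in promoters of metallothionein genes. Whether MTF1 has to do with the levels given below was not tested. RefSeq (GRCh38.p14) gave a promoter for 3 members, MT2A, MT1X and MTF1, and MT1E, MT1F and MT1G were not searched. The 250 bases before the start of MT2A (chr16:56608334-56608583, plus strand) and of MT1X (chr16:56682220-56682469, plus strand) were searched on both strands for the core of the metal response element, the 7 letters TGCACNC or TGCGCNC. Capitals mark the matches, read on either strand.
MT2A promoter: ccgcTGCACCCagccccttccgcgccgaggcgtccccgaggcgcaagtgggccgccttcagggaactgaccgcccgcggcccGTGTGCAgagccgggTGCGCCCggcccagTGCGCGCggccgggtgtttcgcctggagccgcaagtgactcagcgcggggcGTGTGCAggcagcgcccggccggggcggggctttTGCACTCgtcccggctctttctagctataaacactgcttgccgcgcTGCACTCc
MT1X promoter: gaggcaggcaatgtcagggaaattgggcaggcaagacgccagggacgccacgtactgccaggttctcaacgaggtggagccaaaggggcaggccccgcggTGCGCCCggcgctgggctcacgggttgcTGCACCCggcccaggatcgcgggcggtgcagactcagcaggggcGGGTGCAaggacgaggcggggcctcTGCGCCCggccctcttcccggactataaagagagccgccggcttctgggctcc
The MT2A window held 7 matches, the nearest ending 2 bases before the start, and as many or more were found in 0.0313% of the 35116 RefSeq promoters. The MT1X window held 4, reached by 0.370% of the promoters. MT1H, which is not a member and had 0 counts in every library, held 8, reached by 0.0171%. The number of matches thus did not go with the level of these genes. The windows had a GC content of 73.2% (MT2A) and 70.0% (MT1X), against a median of 58.0% over the promoters, which were not matched for it. The MTF1 window (chr1:37859593-37859842, minus strand) held 0, and 24.8% of all promoters held at least 1. A match is a description of the letters and not a bound site.

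MT2A and MT1E were the main metallothionein transcripts of these cells, as levels per gene length in the deposited FPKM (counts scaled to gene length and library total). In sh-NC libraries MT2A was at 111, 91.0 and 86.3 FPKM and MT1E at 63.6, 49.6 and 39.0 FPKM, in the order of their replicate numbers. MTF1 followed at 8.90, 8.15 and 9.52 FPKM, ahead of MT1X at 3.48, 2.60 and 2.62 FPKM. MT1F was at 0.847, 0.641 and 0.543 FPKM and MT1G was listed at 0. In sh-NC no neighbours in this order overlapped between libraries. In sh-IGF2BP3 libraries the order of the means was the same, with MT2A at 151, 169 and 104 FPKM, MT1E at 91.7, 143 and 69.7 FPKM and MTF1 at 6.25, 7.38 and 9.95 FPKM. MT1X was there at 4.54, 5.34 and 2.70 FPKM and MT1F at 2.01, 2.27 and 0.742 FPKM. The ranges of MT2A and MT1E overlapped in these libraries, while within each of the 6 libraries MT2A stood above MT1E.

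MT1G had 0 counts in all 6 libraries, which allows up to 3 counts, or 0.127 to 0.186 CPM, in a library. This floor covers counting error only, since reads amplified by PCR are not independent molecules. Beside the members, 17 other rows of the table are named as metallothioneins. The 12 of them on chromosome 16, of which 6 are protein-coding and 2 are both named MT1JP, were also at 0 in every library. The 5 elsewhere held 29 counts in all, and the highest count of any of them in a library was 6, against 21434 counts on the members other than MTF1. The pseudogene MT2P1 had 1, 6 and 1 counts in sh-NC and 1, 0 and 2 in sh-IGF2BP3 libraries, too few to test. Within the cluster, counts thus came from 4 genes that lie among genes at 0, as the plot of counts along the cluster shows.

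**Figure D1:**
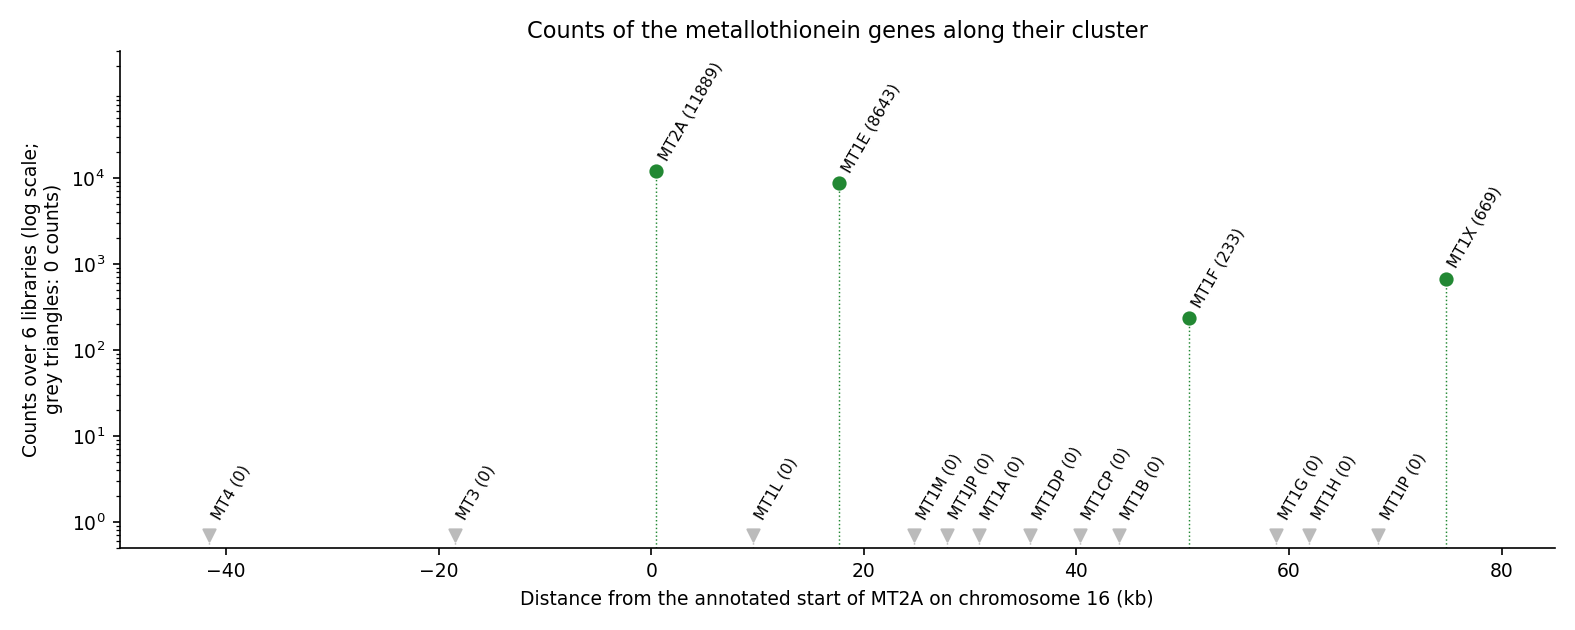
Counts of each metallothionein gene of chromosome 16, summed over the 6 libraries (log scale), by distance from the annotated start of MT2A in kb, with the sum in brackets. Green points are MT2A (11889), MT1E (8643), MT1F (233) and MT1X (669), and grey triangles are the genes at 0, MT1G among them.

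The question put to the members was whether their level differed between sh-IGF2BP3 and sh-NC cells, and they are compared here as CPM scaled between libraries by the TMM method. In sh-NC 1, 2 and 3 MT2A stood at 105.8, 81.0 and 72.2 CPM, against 137.7, 163.5 and 98.4 CPM in sh-IGF2BP3 1, 2 and 3. The groups overlapped, because sh-IGF2BP3 3 lay below sh-NC 1. For MT1E the control values were 69.8, 50.9 and 37.5 CPM, against 96.3, 158.5 and 75.8 CPM with the knockdown. Here every sh-IGF2BP3 library was above every sh-NC library, with sh-IGF2BP3 2 highest. MT1X, at lower levels, had 6.26, 4.38 and 4.14 CPM in the controls against 7.83, 9.75 and 4.83 CPM with the knockdown. The least abundant, MT1F, had 1.64, 1.16 and 0.920 CPM against 3.72, 4.45 and 1.42 CPM in the same order of libraries. Both overlapped through sh-IGF2BP3 3 and sh-NC 1, as MT2A did. Behind these values stood 1413 to 2500 counts a library for MT2A, 734 to 2423 for MT1E, 81 to 149 for MT1X and 18 to 68 for MT1F. MTF1, with 872 to 1535 counts a library, had 74.2, 63.4 and 69.6 CPM in the controls against 49.9, 62.3 and 82.2 CPM with the knockdown. Its lowest and its highest library were both sh-IGF2BP3, on either side of the control libraries.

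**Figure D2:**
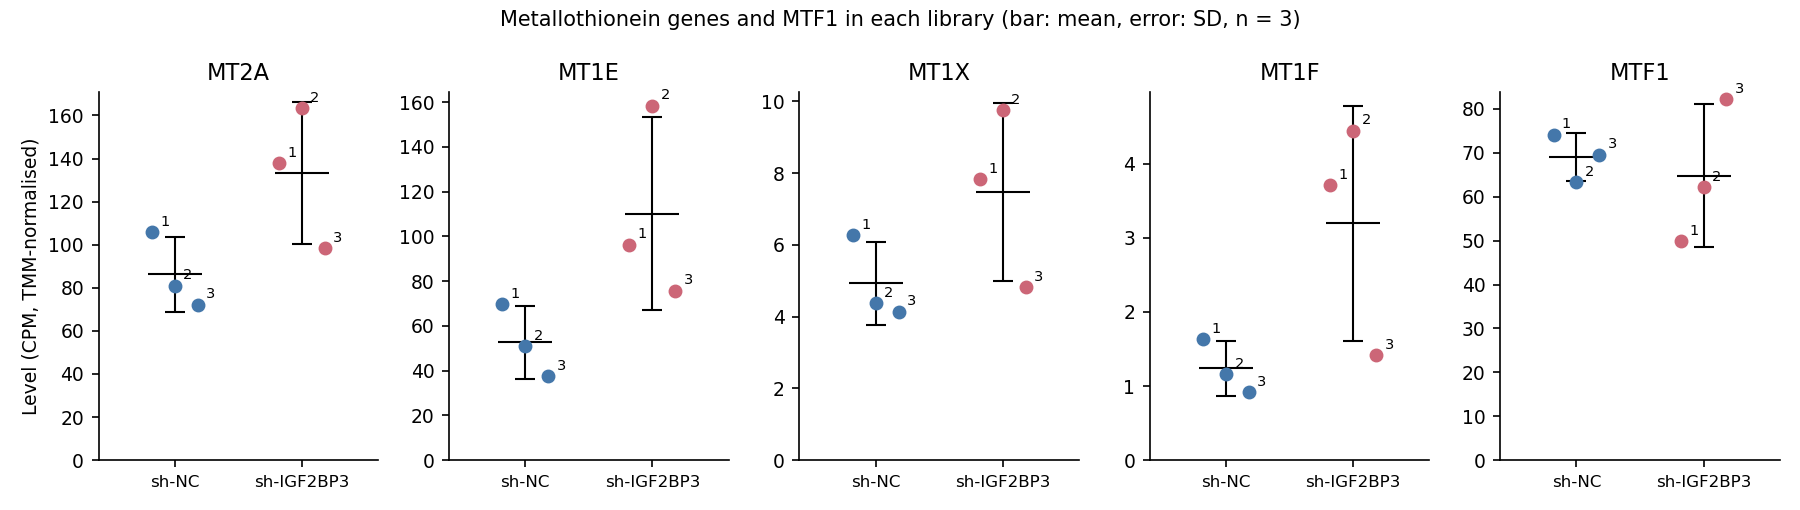
Level of each tested member (CPM, TMM-normalised, linear axes from 0) in the sh-NC (blue) and sh-IGF2BP3 (red) libraries, numbered by replicate, with the mean (bar) and SD (error, n = 3). For MT1E the groups stand apart (52.7 against 110.2 CPM on average), for MT2A, MT1X and MT1F sh-IGF2BP3 3 lies below sh-NC 1, and for MTF1 the sh-IGF2BP3 libraries spread around the controls.

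All 4 tested metallothionein genes had higher means in sh-IGF2BP3 libraries, and none passed the study's thresholds, which ask for a fold change over 1.5 with adjusted p below 0.05. MT1E averaged 52.7 ± 16.2 CPM in the controls against 110.2 ± 43.1 CPM with the knockdown (SD, n = 3 each), for a ratio of 2.09. By edgeR's quasi-likelihood test with Benjamini-Hochberg (BH) adjustment over 16753 genes its log2 fold change was 1.06 ± 0.269 (standard error) at an adjusted p of 0.103, and by p it ranked 172. Errors of means are given as SDs and errors of log2 fold changes as standard errors. MT1F averaged 1.24 ± 0.365 against 3.19 ± 1.58 CPM, with a log2 fold change of 1.37 ± 0.441 and an adjusted p of 0.122 by the same edgeR test. MT2A averaged 86.3 ± 17.4 against 133.2 ± 32.8 CPM, with 0.63 ± 0.218 and an adjusted p of 0.135 (edgeR). For MT1X the means were 4.93 ± 1.16 against 7.47 ± 2.48 CPM, with 0.60 ± 0.317 and an adjusted p of 0.277 (edgeR). MTF1 averaged 69.1 ± 5.39 against 64.8 ± 16.3 CPM, with a log2 fold change of −0.092 (adjusted p = 0.815, edgeR). An approximate 95% interval for it, taken from the standard error with a normal quantile, ran from −0.49 to 0.31. In exact two-sided permutation tests over the 6 libraries p was 0.1 for MT1E, the smallest that 3 against 3 allow, 0.2 for MT2A, MT1X and MT1F and 0.7 for MTF1.

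With the edgeR test 0 of the 5 tested members were called, as were 0% of all genes tested. At an unadjusted p under 0.05, 3 members (MT1E, MT1F and MT2A) were higher in sh-IGF2BP3, where 13.6% of all genes were, and 0 were lower, where 8.54% of all genes were. MT1E was the 1 member whose groups did not overlap, in the higher direction that 13.2% of all genes showed, and 0 members did so in the lower direction, which 11% of all genes showed. DESeq2 with the same thresholds called MT1E higher (adjusted p = 0.0203) and no other member, against 4.29% of its genes called higher and 1.05% called lower. Its adjusted p was 0.0591 for MT1F, 0.0840 for MT2A, 0.222 for MT1X and 0.849 for MTF1. In a bulk library, more RNA per cell and more cells that hold the RNA cannot be told apart.

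The call of a member depended on which libraries and genes entered the test. Without sh-NC 1, the control library with the highest level of every metallothionein gene, edgeR called MT1E (log2 fold change 1.32, adjusted p = 0.00394), MT2A (0.80, adjusted p = 0.0201) and MT1F (1.61, adjusted p = 0.0274) higher, and 10% of all genes were called higher with them. With no filter on low counts it called MT1E (adjusted p = 0.000694) and MT1F (adjusted p = 0.0351) higher, where 1.89% of all genes were. Leaving out sh-IGF2BP3 2, which had the highest level of all 4 genes, gave the lowest log2 fold changes of any left-out library, 0.71 for MT1E, 1.06 for MT1F, 0.46 for MT2A and 0.37 for MT1X. The log2 fold change of each of the 4 genes was above 0 in all 20 alternatives tried.

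The content of G and C bases and the length of genes moved with the libraries in this series, and the metallothionein genes are short and rich in G and C. The longest transcripts had a GC content of 58.2% in MT1F, 53.9% in MT2A, 53.7% in MT1X, 53.5% in MT1E and 46.7% in MTF1, against a median of 48.7% over the genes tested. For MT1F, MT2A and MT1X the longest transcript was not among those annotated as protein-coding. The principal transcripts had 59.9% in MT1F, 63.0% in MT2A, 50.9% in MT1X and 59.5% in MT1E, against a median of 49.3%. The lengths used for FPKM were 914 bases for MT2A, 1052 for MT1E, 1727 for MT1X, 1852 for MT1F and 7989 for MTF1, against a median of 4707. A smooth trend with GC content and length, fitted to all genes, put MT1F at −0.077, −0.26 and −0.23 in the 3 controls against 0.36, 0.26 and −0.042 in the 3 knockdown libraries, on the log2 scale. For MTF1 the trend had the opposite order, −0.043, 0.12 and 0.19 in the controls against −0.080, −0.15 and −0.026 with the knockdown. With these trends removed, edgeR gave a log2 fold change of 0.86 for MT1E, 0.95 for MT1F, 0.41 for MT2A, 0.37 for MT1X and 0.070 for MTF1, and called none of them (lowest adjusted p 0.415, MT1E). With those of each gene's principal transcript used instead, an alternative chosen after seeing the data, MT2A came to 0.072, MT1E to 0.63, MT1X to 0.53 and MT1F to 0.89. The principal transcript of MT2A in GENCODE 29 starts at 56608199, before the start in the files, and its GC content was 63.0%.

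**Figure D3:**
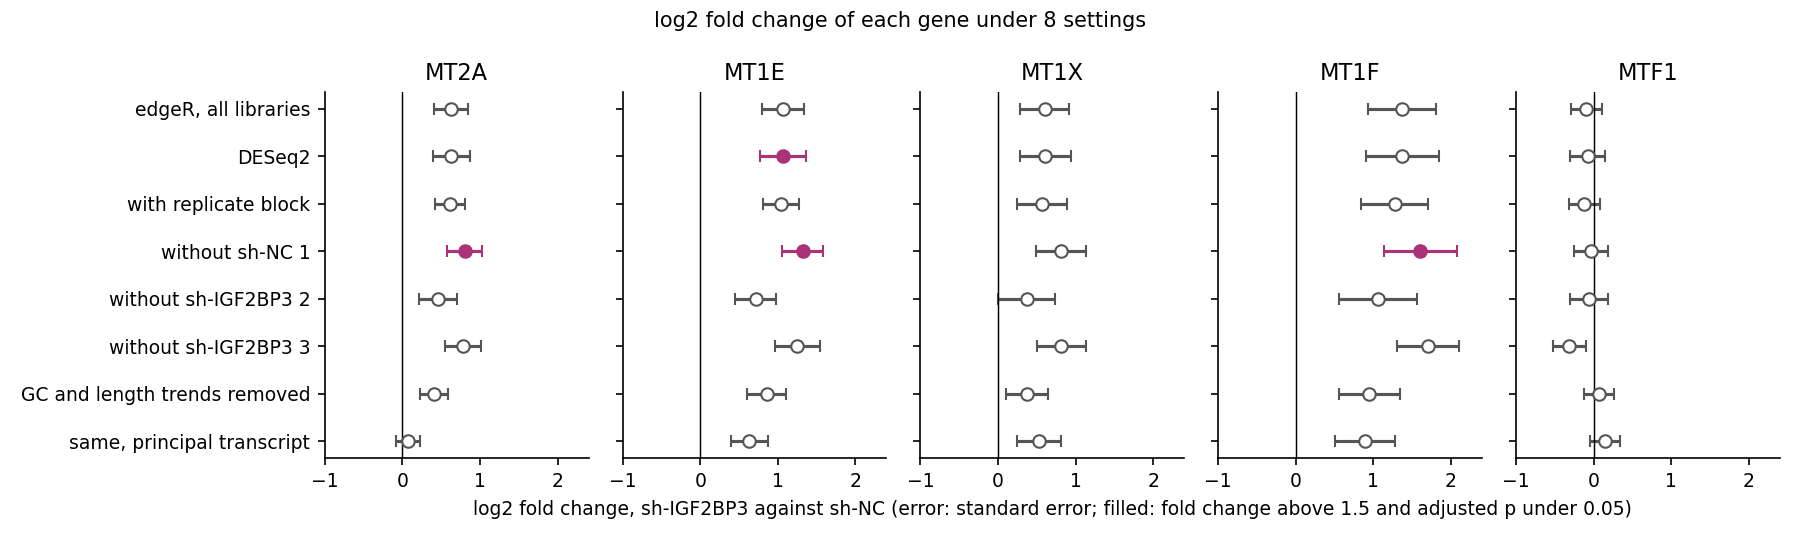
log2 fold change (sh-IGF2BP3 against sh-NC) of each tested member under 8 settings, with the standard error, and filled where fold change and adjusted p passed the thresholds. The metallothionein genes stay to the right of 0, filled for MT1E with DESeq2 (1.07) and for MT1E, MT2A and MT1F without sh-NC 1, and MTF1 changes side.

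Because reads may be split between such similar genes, the metallothionein counts were also summed in each library. The sum came to 183, 137 and 115 CPM in the controls against 246, 336 and 180 CPM with the knockdown. On average this was 145 ± 35.0 against 254 ± 78.2 CPM (SD, n = 3 each), with a ratio of 1.75, and sh-IGF2BP3 3 again lay below sh-NC 1. Summed as FPKM the ratio of the means was 1.65, and for the CPM summed without MT2A it was 2.05.

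The split between the top 2 genes was not the same in all libraries. Of the counts on MT1E and MT2A, MT1E made up 39.7% (95% Wilson interval 38.0 to 41.5), 38.6% (36.9 to 40.3) and 34.2% (32.2 to 36.2) in the 3 controls. In the 3 knockdown libraries it made up 41.2% (39.7 to 42.7), 49.2% (47.8 to 50.6) and 43.5% (41.8 to 45.3). The means were 37.5 ± 2.93% against 44.6 ± 4.14% (SD, n = 3 each, exact two-sided permutation p = 0.1, the smallest possible). The groups did not overlap, but the intervals of sh-NC 1 and sh-IGF2BP3 1 did, and this share was chosen after its values were seen. A share of 2 genes within a library does not depend on the scaling between libraries.

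**Figure D4:**
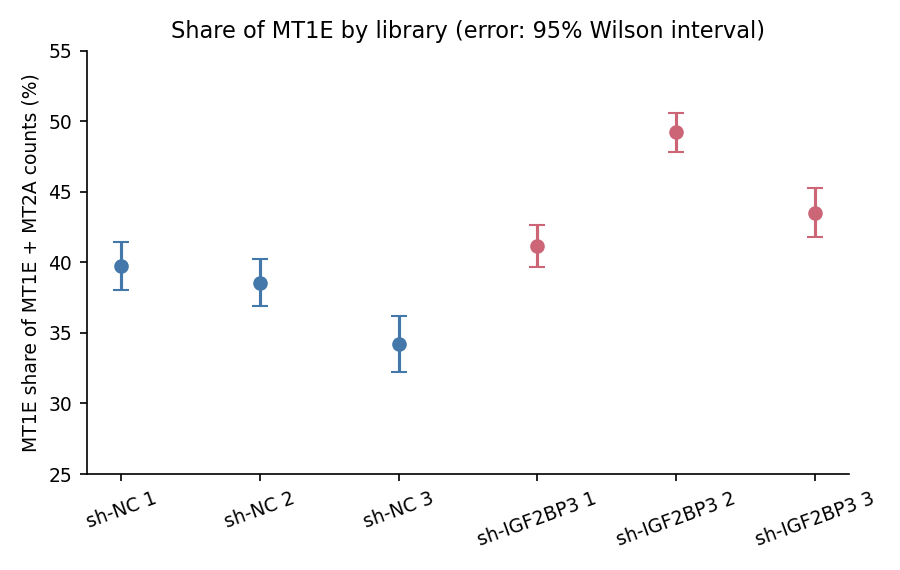
Share of MT1E in the counts of MT1E and MT2A (percent, axis from 25 to 55) in each library, with 95% Wilson intervals that cover counting error only. The sh-NC libraries sit between 34.2% and 39.7% and the sh-IGF2BP3 libraries between 41.2% and 49.2%.

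Across the 6 libraries the log2 CPM of the 4 metallothionein genes varied together, with Pearson's r from 0.93 (MT1E with MT1X) to 0.98 (MT1F with MT2A). With MTF1 their r was −0.33 (MT1E), −0.47 (MT2A), −0.52 (MT1X) and −0.62 (MT1F). These are descriptions over 6 libraries of 2 groups that share depth and base composition. Of the other 16749 genes tested, 8.20% had r above 0.9 with the mean of the 4 genes, and the 5 highest were UQCRH, TMA7, RPL36, ERP29 and RPL12 (r from 0.997 to 1.000). UQCRH, a subunit of respiratory complex III, was at 103, 82.5 and 70.5 CPM in the controls against 138, 168 and 95.6 CPM with the knockdown, in the same order of libraries as MT2A.

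Zinc reaches MTF1 through its transporters. For all lists below, the edgeR counts at an unadjusted p under 0.05 stand beside 13.6% of all genes higher and 8.54% lower. Of 8 tested exporters of the SLC30 family 0 were called by edgeR, and at an unadjusted p under 0.05 0 were higher and 2 lower, with a median log2 fold change of −0.30 against −0.014 over all genes. The 2 were SLC30A7 (log2 fold change −0.58, standard error 0.214), which loads the Golgi with zinc, and SLC30A4 (−0.73, standard error 0.338). SLC30A1, the zinc exporter of the plasma membrane and a classical MTF1 target, averaged 54.3 ± 6.17 against 55.7 ± 3.03 CPM (SD, n = 3 each) with a log2 fold change of 0.036. With GC and length trends removed the median of the exporters was 0.0018. Of 11 tested importers of the SLC39 family 0 were called by edgeR, 2 were higher and 1 lower at an unadjusted p under 0.05, and the median was 0.077, from 0.045 to 0.14 with a library left out. SLC39A10, which brings zinc into the cell and is repressed by MTF1, averaged 88.9 ± 21.2 against 49.8 ± 5.46 CPM with the knockdown (SD, n = 3 each). Its log2 fold change was −0.84 ± 0.207 (adjusted p = 0.103 by edgeR, 0.0202 by DESeq2). SLC39A4, the importer of dietary zinc, averaged 17.1 ± 1.87 against 29.2 ± 7.78 CPM, with a log2 fold change of 0.77 (adjusted p = 0.116 by edgeR, 0.0413 by DESeq2). Neither SLC39A10 nor SLC39A4 overlapped between the groups, as for 11% of all genes lower and 13.2% higher. Of the 11 importers 3 were higher and 3 lower without overlap, and of the 8 exporters 0 and 4. With GC and length trends removed SLC39A10 was at −0.46 (adjusted p = 0.430, edgeR) and SLC39A4 at 0.59 (adjusted p = 0.415, edgeR). With those of the principal transcript SLC39A10 was at −0.42 and SLC39A4 at 0.14. DESeq2 with the trends called 0 genes of all the lists described here.

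Of 7 tested MTF1 targets other than metallothioneins 0 were called by edgeR. At an unadjusted p under 0.05, 3 (SELENOH, SELENOW and CSRP1) were higher and 1 (SLC39A10) lower, against 13.6% and 8.54% of all genes. The median log2 fold change of the 7 was 0.40, over a list that includes SLC39A10, which MTF1 represses. This median was 0.073 without sh-IGF2BP3 1, 0.25 without sh-NC 3, 0.14 with the trends of the principal transcript removed and 0.13 with limma on log2(FPKM + 1). SELENOH, a nuclear selenoprotein, averaged 5.91 ± 0.533 against 11.0 ± 3.64 CPM with the knockdown (SD, n = 3 each), with a log2 fold change of 0.89. GCLC, the catalytic subunit of glutathione synthesis, had a log2 fold change of −0.072. Copper is the other metal that metallothioneins bind, and of 9 genes of copper handling 0 were called by edgeR, 2 were higher (SOD1 and COX17) and 1 lower (ATP7A) at an unadjusted p under 0.05. SOD1, the copper and zinc superoxide dismutase, had a log2 fold change of 0.71 (standard error 0.206), ATP7A, a copper-exporting pump, −0.62 (standard error 0.213), and the median of the list was −0.0035. Without sh-IGF2BP3 3 the median was 0.32, and with GC and length trends removed ATP7A was at −0.11.

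Other inducers of metallothioneins were looked at through their target genes. Of 6 tested targets of the glucocorticoid receptor, 0 were called by edgeR, 2 (PER1 and DUSP1) were higher and 0 lower at an unadjusted p under 0.05, and the median was −0.019, from −0.15 to 0.084 with a library left out. DUSP1, a phosphatase of MAP kinases, was at 101 CPM in sh-IGF2BP3 1 and at 14.9 to 26.6 CPM in the other 5 libraries. Of 6 genes of heavy metal and heat stress, 0 were called by edgeR, with a median of 0.69. At an unadjusted p under 0.05, 4 were higher and 0 lower, against 13.6% and 8.54% of all genes. The median was 1.17 without sh-NC 1, 0.43 without sh-NC 3 and 0.47 with GC and length trends removed. HSPA1B, an inducible HSP70 chaperone, had 63.5, 25.5 and 31.1 CPM in the controls against 96.1, 146.8 and 67.0 CPM with the knockdown. The groups did not overlap, as for 13.2% of all genes in the higher direction. The log2 fold change of HSPA1B was 1.37 ± 0.319 (adjusted p = 0.103 by edgeR, 0.00902 by DESeq2). With GC and length trends removed HSPA1B was at 0.98 (adjusted p = 0.415, edgeR). Its near-identical copy HSPA1A, with 13 to 52 counts a library, had a log2 fold change of 1.20, and reads of the pair may be split. HMOX1, heme oxygenase, had a log2 fold change of 0.80 and BAG3, a co-chaperone, of 0.59. Of the 6 genes of this list 5 were higher with the knockdown and 1 was lower. In both groups the library highest in HSPA1B, sh-NC 1 and sh-IGF2BP3 2, was also the highest in all 4 metallothionein genes. The same libraries were highest in UQCRH, TMA7, RPL36, ERP29 and RPL12. Those 5 genes were picked for their correlation with the metallothionein genes, so that match was set by the choice and adds nothing. Within the controls the CPM of HSPA1B was lowest in sh-NC 2 and that of the 4 metallothionein genes in sh-NC 3. A common cause was not tested.

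The genes beside the cluster give the level of its surroundings. Within 500 kb of the members 13 genes were listed and 9 tested, of which 0 were called by edgeR and 0 had an unadjusted p under 0.05 in either direction, with a median log2 fold change of 0.15. Of the 9, 8 were higher with the knockdown and 1 (BBS2) lower, where 8208 of all genes were higher and 8545 lower. Without overlap between the groups 2 were higher and 0 lower, against 13.2% and 11% of all genes. The nearest tested gene before the cluster, BBS2, a subunit of the BBSome, averaged 28.6 ± 7.10 against 21.9 ± 2.68 CPM with the knockdown (SD, n = 3 each). Its log2 fold change was −0.38, and 0.031 with GC and length trends removed. The nearest after it, NUP93, a nuclear pore protein, averaged 140 ± 30.0 against 167 ± 11.7 CPM (SD, n = 3 each), with a log2 fold change of 0.25. NUDT21, a cleavage factor subunit, had a log2 fold change of 0.37 (standard error 0.200), the highest of the 9. With GC and length trends removed it was at 0.69, above MT2A (0.41) and MT1X (0.37), and was the 1 neighbour with an unadjusted p under 0.05, while the median of the neighbours was 0.22. Without sh-NC 3 that median was 0.079.

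**Figure D5:**
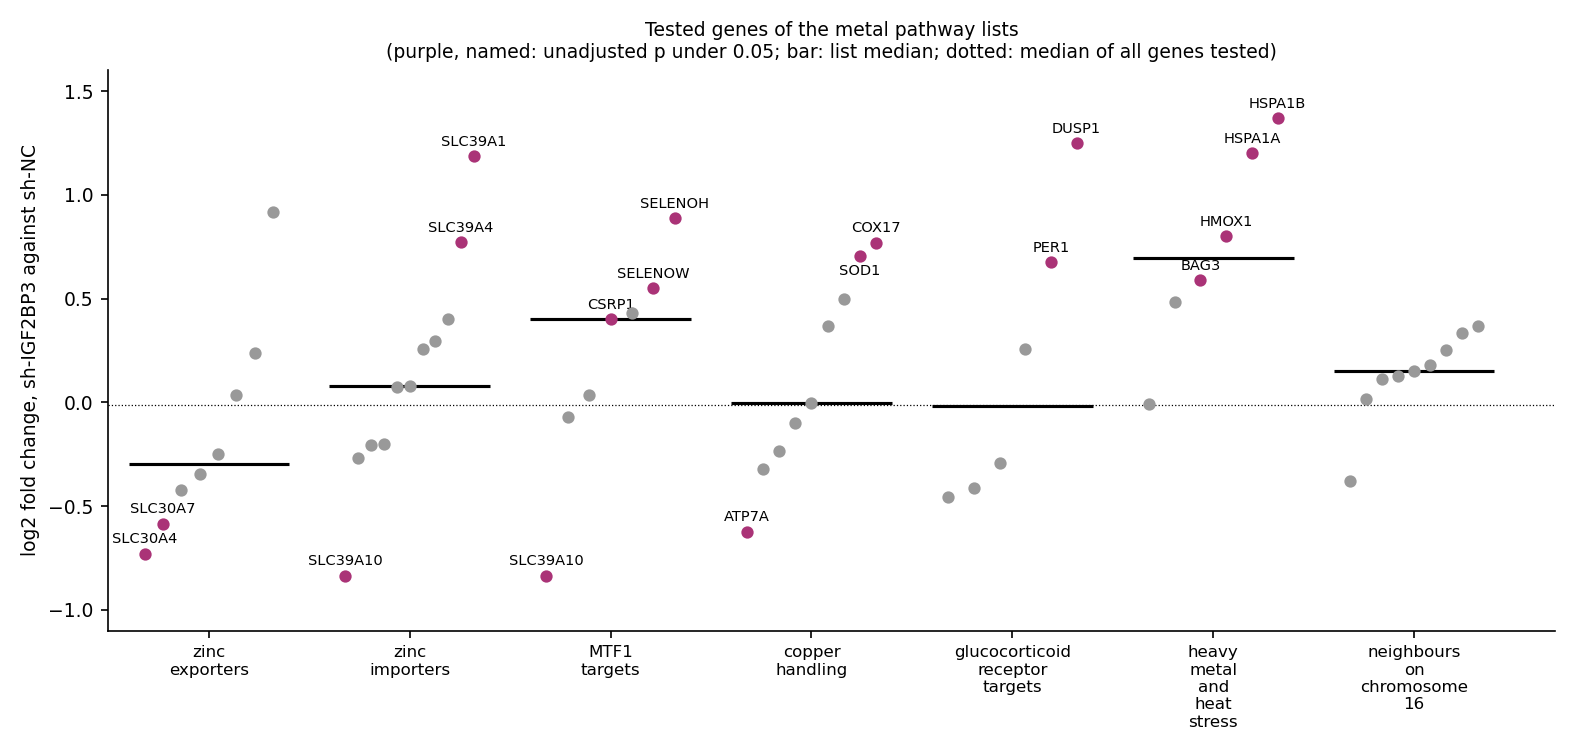
log2 fold change (sh-IGF2BP3 against sh-NC) of each tested gene of the 7 lists, one point a gene, with the list median (bar) and the median of all genes tested (dotted line, −0.014). Purple, named points have an unadjusted p under 0.05; the medians run from −0.30 for zinc exporters to 0.69 for heavy metal and heat stress genes.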

How the data were processed

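RNA of HCT116 cells was prepared with the TruSeq RNA kit, and the submitters' processing notes name CASAVA and GRCh38. Whole-number counts of each gene, without normalization, and FPKM values were deposited by the authors, and the deposited FPKM are those counts over library total and a fixed gene length. The aligner, the counter, strand and the treatment of multiply mapped reads are not given in the sources used here. The members and all lists were chosen with earlier results of these data known. Named genes were the members, IGF2BP3, the 2 genes of each list with the smallest p, other metallothioneins with at least 10 counts, the nearest tested neighbours and the 5 genes most correlated with the members. A few others are given as examples and were chosen after their values were seen. Counts were tested in R 4.3.3 with edgeR 4.0.16 (filterByExpr, TMM, quasi-likelihood test, BH adjustment). DESeq2 1.42.0 and limma 3.58.1 on log2(FPKM + 1) were alternatives. The tools were tried on simulated counts, limma there on log2(CPM + 1) and not on FPKM. The thresholds are those of the study's methods, which name no tool. Other alternatives were RLE and upper-quartile scaling, other filters, a smaller pseudocount (0.1), any fold change, a replicate block, omission of each library, and removal of GC and length trends (splines with 5 degrees of freedom, GENCODE 29 transcripts). GC content was known for 96.9% of tested genes. DESeq2 with these trends, the trends without sh-NC 1 and the trends of the principal transcript were added after seeing the data.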

Additional observations from a re-analysis of the deposited data

How the results depend on the processing

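No member was called by edgeR, and with 3 libraries a group an exact permutation test cannot go below 0.1. Called members numbered 1 with DESeq2, 2 with no filter, 1 with GC and length trends removed without sh-NC 1, 0 to 3 with a library left out (3 without sh-NC 1) and 0 otherwise. Genes of the metal lists called numbered 4 with DESeq2, 4 with no filter, 11 with trends removed without sh-NC 1, and 0 to 14 with a library left out (14 without sh-NC 1, 1 without sh-IGF2BP3 3). Over all genes the calls were 699 of 13087 with DESeq2 (4.29% higher, 1.05% lower), 41 with DESeq2 and the trends, and 837 of 36335 with no filter. With trends removed without sh-NC 1 they were 910 of 17379. RLE scaling, a minimum of 10 counts in every library and limma on log2(FPKM + 1) gave 1 each. With a library left out they were 0 to 2724 (2724 of 17379 without sh-NC 1, 228 without sh-IGF2BP3 3, 5 without sh-NC 3, 2 without sh-NC 2). The cause was not tested.

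MTF1 ranged from −0.31 to 0.069 with a library left out (0.069 without sh-IGF2BP3 1), and changed sign to 0.070 with trends removed (0.056 with the replicate block, 0.21 without sh-NC 1, 0.15 with the principal transcript, 0.081 in DESeq2). The summed metallothionein ratio ranged from 1.47 to 2.02 with a library left out. The series' text speaks of pairs, but deviations of same-numbered libraries correlated at −0.28, −0.19 and −0.04, so the numbers were not taken to pair them. With the replicate block 0 genes were called, and MT1E had a log2 fold change of 1.04 (edgeR adjusted p = 0.0824). MT1F and MT1X rest on few counts, and MT1G and the genes of the cluster that are not members were not detectable at this depth.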
